A study of Mus musculus with 6 samples.

Results

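Chemokines are small secreted proteins that direct the movement of leukocytes, and they were described here together with their receptors in mouse colon. The family was taken from the deposited table by gene symbol: every numbered Ccl, Cxcl, Ccr and Cxcr gene, plus Pf4, Ppbp, Cx3cl1, Xcl1, Xcr1, Ackr2, Ackr3 and Ackr4. This gave 56 of the 25339 genes in the table, of which 36 encode ligands, 17 signalling receptors and 3 atypical receptors. The study sequenced RNA of colon from mice that received lenvatinib, an inhibitor of several receptor tyrosine kinases including those for VEGF and FGF, or the solvent DMSO. There were 3 libraries for each of the 2 groups. The sources used here do not give strain, age, dose, duration or any induction of colitis, and the series title concerns colitis and B cell movement into the gut.

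A chemokine binds a receptor coupled to inhibitory G proteins, and the receptor turns the cell towards higher concentrations of the ligand. Inflammatory chemokines are induced in macrophages, stroma and epithelium and recruit monocytes, neutrophils and effector T cells. Homeostatic chemokines such as Ccl19, Ccl21a and Cxcl13 build lymphoid follicles, and the epithelial chemokines Ccl25 and Ccl28 attract lymphocytes and IgA-secreting plasma cells to the gut wall. Atypical receptors bind chemokines without G protein signalling and remove them.

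Levels are given in FPKM, fragments per kilobase of gene scaled to the total of the library. Each difference is lenvatinib minus DMSO on the scale log2(FPKM + 1) with its standard error (SE), a scale on which changes of low genes come out too small. The 35 family members that averaged 1 FPKM or more across all 6 libraries were tested within a limma fit of 11774 genes, and a gene passed at a Benjamini-Hochberg adjusted p below 0.05. The libraries rest on 37996789 to 39623411 reads each. Libraries 2 and 3 of each group were nearly alike. Over the 35 tested members their median absolute difference on the log2 scale was 0.0826 between lenvatinib 2 and 3 and 0.0847 between DMSO 2 and 3, against 0.226 to 1.06 for the other 13 pairs. The labels call the libraries biological replicates without naming animals, so every p-value here reflects spread among these libraries, part of which may be technical. DMSO 1 also stood apart in sex-linked transcripts, with Ddx3y at 6.54 FPKM and listed at 0 in the other 5 libraries. Xist was at 0.00147 FPKM in DMSO 1 and at 15.9 to 19.8 FPKM in the other 5. Only the DMSO group held such a library, and the part of sex in the levels was not tested. The colonic epithelial markers had a summed level of 10070 to 13440 FPKM in the lenvatinib libraries and 10593 to 12351 FPKM in the DMSO libraries, most of it from Car1, and none of the 12 was listed at 0 throughout. None of 11 tested passed, although 5 had groups that did not overlap, where 27.5% of all genes tested had. Examples are Muc2, the mucin of goblet cells (lower), and the anion exchanger Slc26a3 (higher).

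Of the 35 tested members, 2 ligands rose with lenvatinib (Ccl25 and Ccl28), and 2 ligands and 1 receptor fell (Ccl8, Pf4 and Ccr1). Over all genes tested 1.10% rose and 0.934% fell (2.03% together). The other 30 members did not pass, and 12 of the 35 had an unadjusted p below 0.05, where 22.0% of all genes did. The promoters of the 5 that passed are shown because 3 of these genes fell and 2 rose. Each line gives the 250 bases before a RefSeq transcription start in the mouse build GRCm38.p6, read 5′ to 3′ towards the start, and capitals mark any match to the motifs named after them. For Ccl25, which has more than 1 start in RefSeq, the window with motif matches is shown.
Ccl8, chr11:82114935-82115184, plus strand: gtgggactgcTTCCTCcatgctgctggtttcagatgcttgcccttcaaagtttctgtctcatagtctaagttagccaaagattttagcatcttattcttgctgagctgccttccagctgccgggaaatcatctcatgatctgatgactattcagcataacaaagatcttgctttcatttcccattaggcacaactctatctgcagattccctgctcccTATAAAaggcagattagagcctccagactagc
Pf4, chr5:90772185-90772434, plus strand: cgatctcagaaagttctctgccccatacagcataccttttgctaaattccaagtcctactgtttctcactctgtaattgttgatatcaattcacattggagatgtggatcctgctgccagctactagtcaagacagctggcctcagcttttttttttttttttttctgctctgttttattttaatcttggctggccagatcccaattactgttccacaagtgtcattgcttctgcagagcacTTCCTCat
Ccr1, chr9:123968693-123968942, minus strand: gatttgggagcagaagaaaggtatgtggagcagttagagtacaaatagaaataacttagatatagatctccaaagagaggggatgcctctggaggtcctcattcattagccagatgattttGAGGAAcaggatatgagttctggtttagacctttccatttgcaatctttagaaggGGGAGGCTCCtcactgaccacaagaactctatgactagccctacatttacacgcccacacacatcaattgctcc
Ccl25, chr8:4349338-4349587, plus strand: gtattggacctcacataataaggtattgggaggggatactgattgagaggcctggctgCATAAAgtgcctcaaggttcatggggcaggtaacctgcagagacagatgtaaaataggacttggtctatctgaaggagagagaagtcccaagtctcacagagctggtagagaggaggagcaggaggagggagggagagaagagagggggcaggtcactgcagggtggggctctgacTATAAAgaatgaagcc
Ccl28, chr13:119623569-119623818, plus strand: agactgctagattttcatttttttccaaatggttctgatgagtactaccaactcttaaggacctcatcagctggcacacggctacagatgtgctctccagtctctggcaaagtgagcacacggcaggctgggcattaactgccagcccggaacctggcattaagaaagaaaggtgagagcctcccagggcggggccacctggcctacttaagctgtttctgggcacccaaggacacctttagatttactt

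The motifs, chosen after the values were known, were searched on both strands. The core GAGGAA of the myeloid factor PU.1 stood in the windows of Ccl8, Pf4 and Ccr1 and not in those of Ccl25 and Ccl28. It was present in 23.3% of 32817 such windows of all genes and in 8 of the 26 windows of tested family members that RefSeq supplied. A TATA box, TATAAA, stood 32 bases before the start of Ccl8 and 16 bases before that of Ccl25, and in 12.4% of all windows and 10 of the 26. The window shown for Ccl25, picked because it held matches, also had 1 core of the intestinal CDX factors, TTTATG, on the opposite strand. That core was present in 10.8% of all windows and in 6 of the 26. Ccr1 held a match to the NF-kB site, present in 7.25% of windows and in 4 of the 26. The STAT site TTCNNNGAA and the AP-1 site TGANTCA were not found in any of these 5 windows, against 7.01% and 6.75% of all windows. No 2 matches overlapped in the windows shown. Such matches describe the letters and do not show binding.

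**Figure D1:**
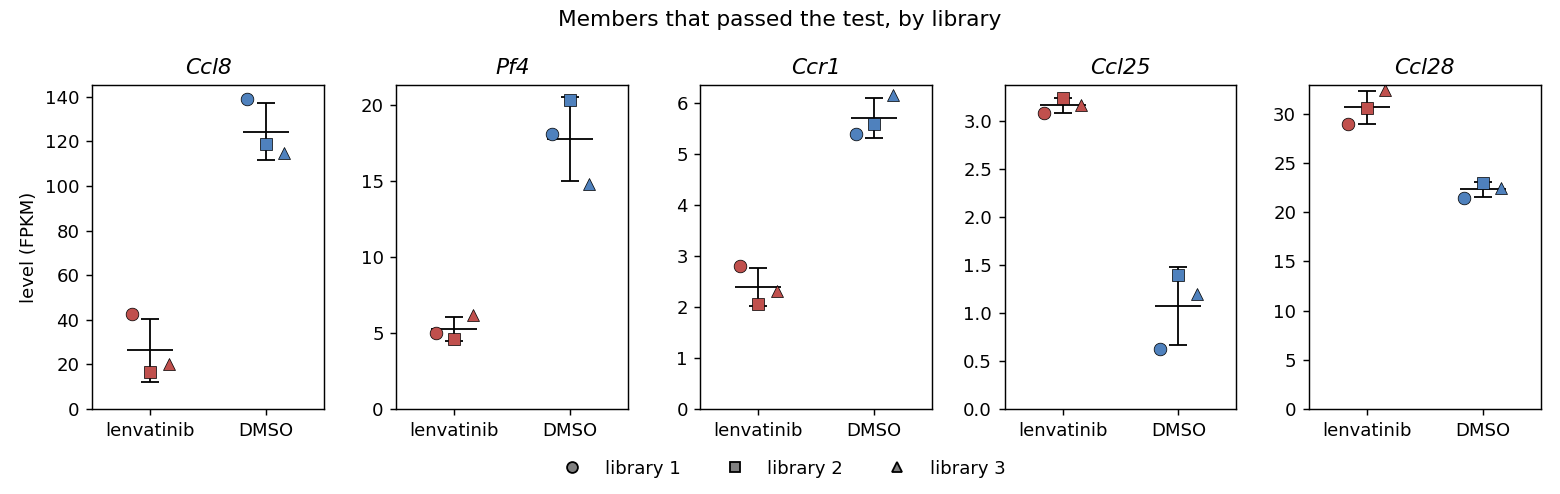
Level in FPKM (vertical axes, from 0) of the 5 family members that passed, one panel per gene, with lenvatinib libraries to the left of DMSO libraries, marker shape for the library number, and mean ± SD as bars. In each panel the groups are separate, and Ccl8 is higher in lenvatinib 1 (42.6 FPKM) than in lenvatinib 2 and 3 (16.7 and 19.95 FPKM).

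Among the inflammatory CC ligands, Ccl8 had the largest difference of the tested members on the log2(FPKM + 1) scale, while Ccl4 exceeded it with a pseudocount of 0.1 (−2.42 against −2.35) and with voom on the recovered reads (−3.03 against −2.36). Ccl8 attracts monocytes and, in mouse, T cells through Ccr8. It measured 42.6, 16.7 and 19.95 FPKM in lenvatinib 1 to 3, against 139, 119 and 115 FPKM in DMSO 1 to 3. All lenvatinib libraries were far below all DMSO libraries, with 334 to 834 reads against 2292 to 2696. The means of 26.4 ± 14.1 and 124 ± 12.7 FPKM (SD, n = 3 libraries each) differed 4.70-fold (log2 difference −2.30, SE 0.330, limma adjusted p = 0.0280). Ccl8 made up 5.61 to 6.87% of the family's summed level in lenvatinib libraries and 19.6 to 24.0% in DMSO libraries. The call was lost without DMSO 1 (adjusted p = 0.0742), without DMSO 2 or 3 (0.145 and 0.143) and without lenvatinib 2 or 3 (0.0995 and 0.137). It was also lost with libraries 2 and 3 of each group averaged (0.508) and without a filter on low values (0.0615).

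Pf4, the platelet factor that tissue macrophages also express, measured 5.02, 4.63 and 6.16 FPKM in lenvatinib 1 to 3 and 18.1, 20.3 and 14.8 FPKM in DMSO 1 to 3. The groups were well separated, by 3.37-fold in the means (log2 difference −1.58, SE 0.141, limma adjusted p = 0.00558). Pf4 passed with any single library left out (adjusted p = 0.00208 to 0.0382), and the call was lost with libraries 2 and 3 averaged (0.0855). Ccr1, a receptor of monocytes and macrophages for Ccl3, Ccl5, Ccl6, Ccl7 and Ccl9, measured 2.80, 2.06 and 2.32 FPKM with lenvatinib, against 5.38, 5.58 and 6.14 FPKM with DMSO. It fell by 2.38-fold (log2 difference −0.98, SE 0.102, limma adjusted p = 0.00951). The call was lost without lenvatinib 3 (adjusted p = 0.0683), without DMSO 2 or 3 (0.0703 and 0.0721) and with libraries 2 and 3 averaged (0.333).

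In the same libraries 8 of 17 tested markers of macrophages and monocytes fell and none rose, where 0.934% of all genes tested fell. Those that fell include Csf1r, the receptor for the macrophage growth factor, and C1qa, a chain of complement C1q, while 2 differences were positive, with Mertk at 8.52, 11.9 and 11.5 FPKM with lenvatinib and 7.97, 7.87 and 8.20 FPKM with DMSO (adjusted p = 0.183). None of the 17 passed with libraries 2 and 3 averaged. The summed level of the list was 264, 191 and 189 FPKM in lenvatinib 1 to 3 and 399, 451 and 472 FPKM in DMSO 1 to 3, and none of the 18 in the list was listed at 0 throughout. In bulk tissue, fewer cells of a type and less RNA per cell cannot be told apart. Of the platelet and megakaryocyte list 1 gene was tested, Gp1bb, which did not pass and made up most of the list's summed level of 2.88 to 6.04 FPKM with lenvatinib and 2.90 to 3.70 FPKM with DMSO. The untested Itga2b, a platelet integrin, measured 0.258, 0.372 and 0.128 FPKM with lenvatinib and 0.521, 0.492 and 0.598 FPKM with DMSO, and Gp1ba was also lower in every lenvatinib library. The list member Ppbp, another platelet chemokine, had at most 8 reads in any library. All 4 tested mast cell markers fell, but they met the filter only through the DMSO libraries, with lenvatinib means of at most 0.241 FPKM. Genes admitted in this way could hardly be called higher. The list of mast cell and eosinophil markers summed to 2.01, 2.03 and 1.83 FPKM with lenvatinib and 228, 205 and 206 FPKM with DMSO. The mast cell gene Fcer1a was listed at 0 in every lenvatinib library. Of 10 tested fibroblast markers 5 fell, and the list summed to 438, 367 and 360 FPKM with lenvatinib and 620, 584 and 582 FPKM with DMSO. With libraries 2 and 3 averaged, 2 of the mast cell markers and 0 of the fibroblast markers passed. The part of these cell types in the levels of Ccl8, Pf4 and Ccr1 was not tested.

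Ccl8 lies in a run of 6 neighbouring family genes in RefSeq, in the order Ccl2, Ccl7, Ccl11, Ccl12, Ccl8, Ccl1. Their values differed widely. Ccl12, a ligand of Ccr2, measured 1.27, 2.87 and 1.73 FPKM in lenvatinib libraries and 3.24, 4.002 and 4.79 FPKM in DMSO libraries. The groups did not overlap and the gene did not pass (log2 difference −0.79, adjusted p = 0.126). Ccl7, which attracts monocytes, measured 5.80, 1.12 and 0.967 FPKM with lenvatinib and 3.84, 6.40 and 6.95 FPKM with DMSO (adjusted p = 0.254). Here lenvatinib 1 lay within the DMSO range. Ccl2, the main ligand of Ccr2, measured 15.9, 2.35 and 3.04 FPKM with lenvatinib and 3.59, 7.14 and 7.42 FPKM with DMSO (adjusted p = 0.895), so that lenvatinib 1 was the highest library and lenvatinib 2 and 3 the lowest. Ccl11, the eotaxin that attracts eosinophils, differed little, with 16.5, 15.0 and 15.5 FPKM against 22.0, 14.4 and 14.8 FPKM (adjusted p = 0.737). Ccl1 had at most 5 reads.

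The second run of CC genes, in the order Ccl5, Ccl9, Ccl6, Ccl3, Ccl4, did not pass in any of 4 tested members in limma (Ccl4 had an unadjusted p of 0.0274). Without lenvatinib 1 all 4 fell, with a log2 difference of −2.03 for Ccl5 (adjusted p = 2.01e-04), −1.42 for Ccl4 (5.42e-04), −0.66 for Ccl9 (0.00228) and −0.73 for Ccl6 (0.00494). In that setting 28.2% of all genes tested fell. The lenvatinib group then held only libraries 2 and 3, which were nearly alike, so these p-values may understate the spread between animals. Ccl5, a product of T and NK cells, measured 95.2, 12.5 and 10.8 FPKM in lenvatinib 1 to 3 and 52.8, 47.5 and 50.8 FPKM in DMSO 1 to 3 (log2 difference −1.05, SE 0.788, adjusted p = 0.433). Lenvatinib 1 was thus above every DMSO library and lenvatinib 2 and 3 far below. Ccl4, made by activated T cells and macrophages, measured 1.58, 0.116 and 0.0391 FPKM in lenvatinib libraries, which rest on 40, 3 and 1 reads, against 1.95, 2.03 and 1.67 FPKM in DMSO libraries. The groups did not overlap, but lenvatinib 1 lay close to DMSO 3 (adjusted p = 0.185). Ccl6, a macrophage product, ranged from 33.3 to 71.3 FPKM with lenvatinib and from 53.3 to 65.6 FPKM with DMSO (adjusted p = 0.437). Ccl9 ranged from 9.66 to 16.7 FPKM and from 15.0 to 17.2 FPKM (adjusted p = 0.264). In both, lenvatinib 2 and 3 were below all DMSO libraries.

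Of the ligands made by epithelium, Ccl25 and Ccl28 rose. Ccl25, the ligand of Ccr9 that is typical of the small intestine, measured 3.09, 3.25 and 3.17 FPKM in lenvatinib 1 to 3 and 0.626, 1.40 and 1.20 FPKM in DMSO 1 to 3. The lenvatinib libraries held 363 to 390 reads, against 73 to 170 in DMSO libraries, with the lowest value in DMSO 1. The difference was 2.95-fold (log2 difference 1.03, SE 0.151, limma adjusted p = 0.0291). Ccl28, a mucosal ligand of Ccr10, measured 29.0, 30.6 and 32.4 FPKM with lenvatinib and 21.5, 23.0 and 22.5 FPKM with DMSO. Its groups were also separate, at a smaller ratio of 1.37 (log2 difference 0.44, SE 0.0640, limma adjusted p = 0.0285). Ccl20, the epithelial ligand of Ccr6, measured 2.57, 4.44 and 4.67 FPKM with lenvatinib and 1.97, 2.52 and 2.46 FPKM with DMSO. It did not pass (log2 difference 0.54, adjusted p = 0.190), with lenvatinib 1 just above the highest DMSO library.

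Without DMSO 1, Ccl25 passed (adjusted p = 0.0175) and the call of Ccl28 was lost (0.0566). Both calls were lost without lenvatinib 2 (0.141 for Ccl25 and 0.155 for Ccl28), lenvatinib 3 (0.143 and 0.153), DMSO 2 (0.0735 and 0.145) or DMSO 3 (0.135 and 0.170), with libraries 2 and 3 averaged (0.427 and 0.665) and without a filter on low values (0.0624 and 0.0596). In the same libraries 8 of 9 tested markers of small intestinal epithelium rose and none fell, where 1.10% of all genes rose. With libraries 2 and 3 averaged 1 passed. Sis, Mmp7, Apoa1, Defa24 and Naaladl1 met the filter only through the lenvatinib libraries, with DMSO means of 0.0702, 0.0231, 0.315, 0.377 and 0.890 FPKM. Genes admitted in this way could hardly be called lower, and the list was chosen with earlier results of these data known. Of the untested markers, Apoa4 and Treh were higher in every lenvatinib library. The groups of Lct, Gata4 and Fabp1 overlapped near 0, and the means of Gata4 and Fabp1 were lower with lenvatinib. The summed level of the list was 337, 446 and 419 FPKM in lenvatinib 1 to 3 and 24.3, 28.4 and 29.0 FPKM in DMSO 1 to 3, and none of the 14 was listed at 0 throughout. Their part in the level of Ccl25 was not tested.

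Cx3cl1, the membrane-bound fractalkine of epithelium and endothelium, measured 26.8, 30.9 and 30.1 FPKM with lenvatinib and 27.4, 26.4 and 27.6 FPKM with DMSO (log2 difference 0.10, adjusted p = 0.400). Its receptor Cx3cr1, found on resident macrophages and outside the family as selected here, measured 2.46, 2.10 and 1.76 FPKM with lenvatinib and 7.42, 8.37 and 8.32 FPKM with DMSO. The receptor fell (log2 difference −1.55, SE 0.103, limma adjusted p = 0.00210, and 0.131 with libraries 2 and 3 averaged) while the ligand's groups overlapped. Cxcl16, a ligand for Cxcr6 that also serves as a scavenger receptor, measured 15.8, 11.6 and 11.9 FPKM in lenvatinib libraries and 21.3, 19.1 and 18.5 FPKM in DMSO libraries. Its groups did not overlap and it did not pass (log2 difference −0.56, SE 0.126, adjusted p = 0.0913). Cxcl14, a constitutive chemokine of epithelium and stroma, measured 9.79 to 11.6 FPKM and 10.6 to 13.9 FPKM (adjusted p = 0.482). Ccl22, a ligand of Ccr4 from dendritic cells, measured 1.74 to 2.29 FPKM and 1.29 to 2.27 FPKM (adjusted p = 0.742).

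The interferon-induced ligands of Cxcr3 varied between libraries of the same group. Cxcl9 measured 14.5, 1.26 and 1.55 FPKM in lenvatinib 1 to 3 and 2.36, 14.2 and 15.1 FPKM in DMSO 1 to 3 (log2 difference −1.07, SE 0.935, adjusted p = 0.496). Cxcl10 had 12.7, 4.07 and 4.76 FPKM with lenvatinib and 3.30, 11.2 and 11.9 FPKM with DMSO (adjusted p = 0.791). In both genes library 1 of each group lay near libraries 2 and 3 of the other group, so the lenvatinib and DMSO ranges overlapped almost wholly. Xcl1, a ligand made by NK and CD8 T cells, measured 8.32, 3.51 and 2.64 FPKM and 3.71, 6.67 and 7.09 FPKM (adjusted p = 0.633), with lenvatinib 1 the highest library and lenvatinib 2 and 3 the lowest.

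None of the lymphoid and stromal ligands passed in limma, also at an unadjusted p below 0.05. Cxcl13, which draws B cells into follicles, measured 34.9, 12.3 and 13.1 FPKM in lenvatinib 1 to 3 and 16.4, 15.4 and 18.3 FPKM in DMSO 1 to 3 (log2 difference 0.09, adjusted p = 0.891). Lenvatinib 1 was the highest library, and without it the difference was −0.37 (adjusted p = 0.0193), in a setting where 28.2% of all genes fell. Ccl21a, made by lymphatic endothelium and reticular cells, measured 106, 50.5 and 52.8 FPKM with lenvatinib and 73.6, 76.7 and 89.6 FPKM with DMSO (adjusted p = 0.570). Near-identical copies of this gene exist, so its reads could be split and its level is uncertain; the copy Ccl21b had at most 2 reads. Ccl19, the other ligand of Ccr7, measured 3.47, 0.707 and 0.645 FPKM with lenvatinib and 3.53, 3.45 and 2.57 FPKM with DMSO (adjusted p = 0.265). Cxcl12, the stromal ligand of Cxcr4, measured 18.2, 10.6 and 10.6 FPKM and 15.6, 17.3 and 17.4 FPKM (adjusted p = 0.316). In these 4 genes lenvatinib 2 and 3 lay below all DMSO libraries and lenvatinib 1 did not.

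**Figure D2:**
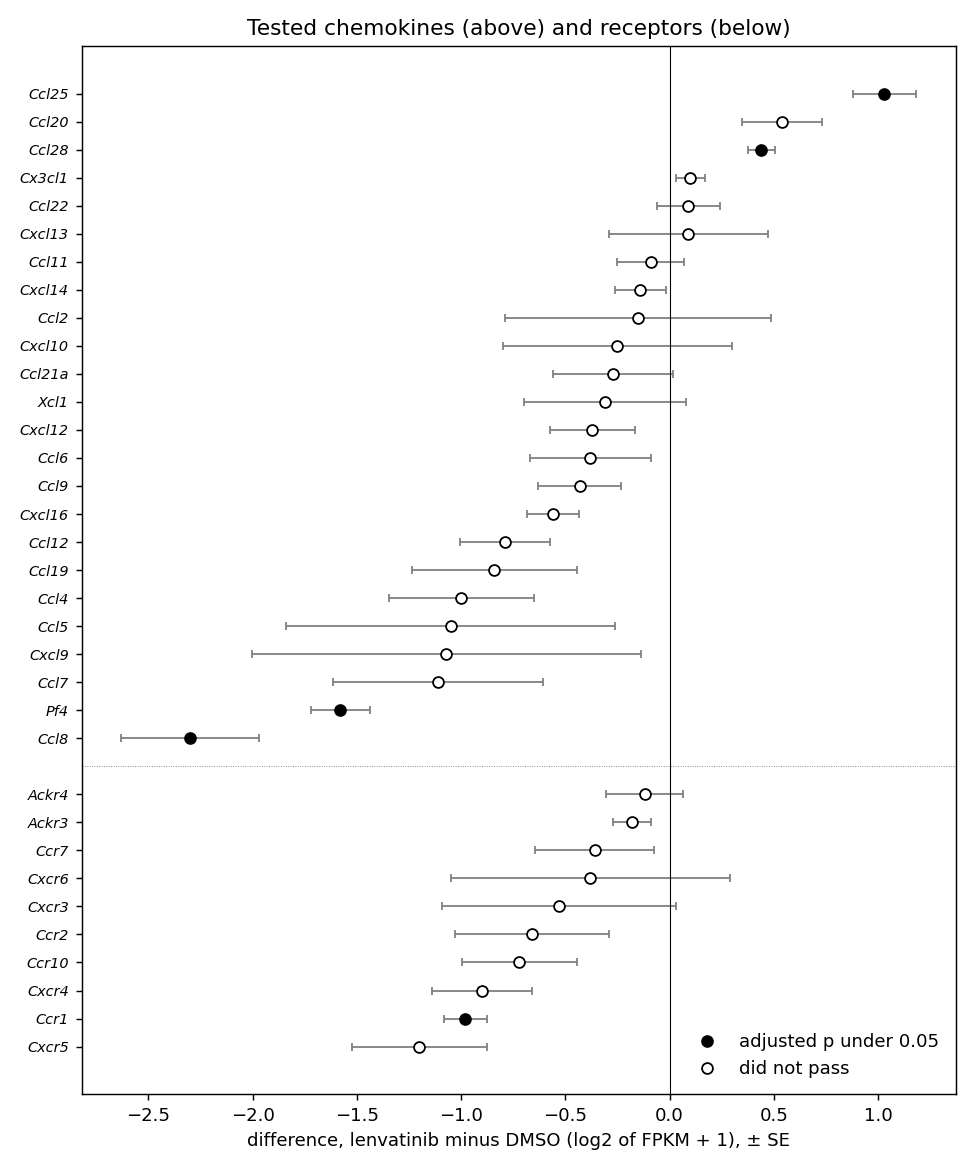
Difference between lenvatinib and DMSO libraries on the log2(FPKM + 1) scale with its SE (horizontal axis) for the 24 tested ligands (above the dotted line) and 10 of the tested receptors (below), filled where the adjusted p was below 0.05. The 5 filled points are Ccl25 and Ccl28 to the right of 0 and Pf4, Ccl8 and Ccr1 to its left, and all 10 receptors shown lie to the left of 0.

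All 11 tested receptors (9 signalling and 2 atypical) had negative differences, as did 63.9% of all genes tested, with a median of −0.66 against −0.07 over all genes, and Ccr1 alone among them passed. The signs held under each scaling tried, but Cxcr6 was positive with libraries 2 and 3 averaged (0.17), with them as a random block (0.12) and without lenvatinib 3 (0.08), and Ackr4 without DMSO 1 (0.07). Cxcr5, the follicular homing receptor of B cells, measured 1.94, 0.388 and 0.382 FPKM in lenvatinib 1 to 3 and 2.35, 3.25 and 3.82 FPKM in DMSO 1 to 3. Its groups did not overlap, and it did not pass (log2 difference −1.20, SE 0.322, adjusted p = 0.123). Cxcr4, the widely expressed leukocyte receptor for Cxcl12, had 4.02, 1.85 and 1.75 FPKM with lenvatinib and 5.90, 5.13 and 4.99 FPKM with DMSO, also without overlap (log2 difference −0.90, adjusted p = 0.122). Ccr10, the receptor of IgA plasma cells for Ccl28, measured 1.56, 0.549 and 0.449 FPKM with lenvatinib and 2.91, 1.58 and 1.53 FPKM with DMSO (log2 difference −0.72, adjusted p = 0.208). Here lenvatinib 1 matched the lower DMSO libraries.

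Ccr2, the receptor that brings monocytes out of the blood, measured 4.01, 1.21 and 0.951 FPKM with lenvatinib and 2.58, 3.78 and 4.02 FPKM with DMSO (adjusted p = 0.315). Ccr7, which guides dendritic cells and naive T cells, measured 2.70, 1.08 and 0.863 FPKM and 1.52, 2.25 and 2.72 FPKM (adjusted p = 0.454). In both genes the lowest values were those of lenvatinib 2 and 3. Cxcr3, a receptor of effector T cells, measured 7.47, 1.19 and 1.22 FPKM in lenvatinib libraries and 2.49, 5.03 and 4.90 FPKM in DMSO libraries (adjusted p = 0.573). Cxcr6, found on tissue-resident lymphocytes, measured 8.53, 1.33 and 0.818 FPKM and 1.71, 4.36 and 5.13 FPKM (adjusted p = 0.739). Both were highest in lenvatinib 1. Of the atypical receptors, Ackr3, which takes up Cxcl12, measured 5.18 to 6.39 FPKM with lenvatinib and 6.11 to 7.09 FPKM with DMSO (adjusted p = 0.298). Ackr4, which takes up Ccl19, Ccl21a and Ccl25, measured 2.24 to 2.94 FPKM and 2.20 to 3.96 FPKM (adjusted p = 0.698).

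**Figure D3:**
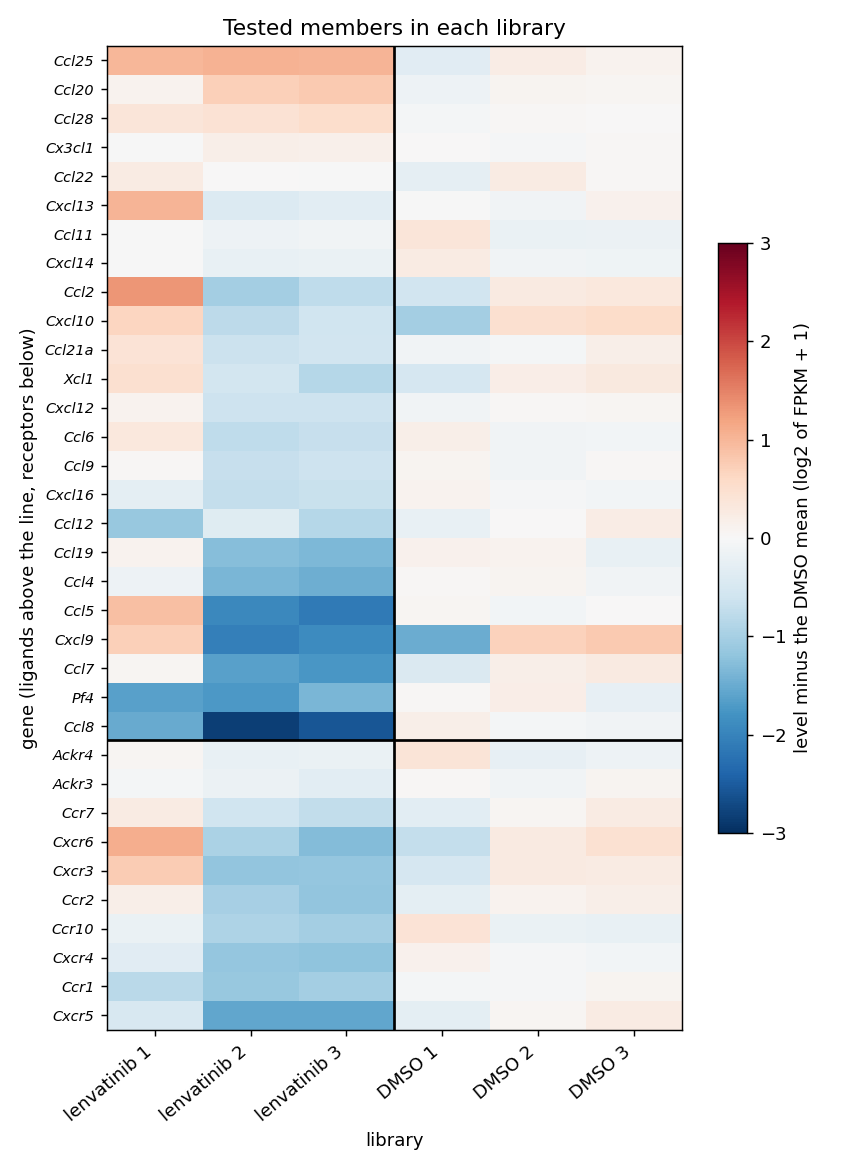
Level of 34 of the 35 tested members in each library (columns, lenvatinib then DMSO) minus the mean of the DMSO libraries on the log2(FPKM + 1) scale, shown as colour, with ligands above the line and receptors below. Lenvatinib 2 and 3 are alike and mostly blue, lenvatinib 1 is red or pale for many of the same genes, such as Ccl5 (95.2 FPKM against 12.5 and 10.8), and DMSO 1 is blue for Cxcl9 and Cxcl10.

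Across the 35 tested members, 3 (Ccl20, Ccl25 and Ccl28) were higher in every lenvatinib library than in any DMSO library, where 10.0% of all genes tested were. Another 8 were lower in every lenvatinib library (22.9% of the members), where 17.5% of all genes tested were. In all, 11 of 35 had groups without overlap, where 27.5% of all genes tested had. In 19 further members lenvatinib 2 and 3 lay below every DMSO library while lenvatinib 1 did not. Of these, lenvatinib 1 was above every DMSO library in 9 (25.7%, against 11.6% of all genes tested) and within the DMSO range in 10 (28.6%, against 17.5%). The grouping of the libraries in these counts was read from the data after the values were seen. Without lenvatinib 1, 4 members were higher and 20 lower in limma, where 9.85% of all genes rose and 28.2% fell. The median difference of the 35 members was then −0.71, against −0.10 for all genes tested. With all 6 libraries it was −0.38, against −0.07, with 29 of 35 differences below 0 and 7528 of 11774 over all genes.

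The T cell list summed to 89.2, 17.2 and 18.6 FPKM in lenvatinib 1 to 3 and to 45.0, 71.8 and 71.2 FPKM in DMSO 1 to 3, so that lenvatinib 1 was the highest library and lenvatinib 2 and 3 the lowest. None of its 10 tested genes passed in limma (0 at an unadjusted p below 0.05, where 22.0% of all genes were). All 10 were lower without lenvatinib 1, where 28.2% of all genes fell and only the nearly alike lenvatinib 2 and 3 remained. B cell and follicle markers summed to 50.9, 11.1 and 12.3 FPKM with lenvatinib and 96.9, 85.1 and 89.3 FPKM with DMSO, with Clec4g at 0 in every library. Of 9 tested genes 0 passed in limma, and all 9 had an unadjusted p below 0.05, where 22.0% of all genes had. Dendritic cell markers summed to 20.5, 10.2 and 10.2 FPKM and 18.9, 21.5 and 22.5 FPKM, and 0 of 4 passed (2 at an unadjusted p below 0.05). That list holds the family members Ccr7, among the 4 tested, and Xcr1, so it is not separate from the family. The family itself summed to 621, 298 and 307 FPKM with lenvatinib and 579, 569 and 587 FPKM with DMSO. The part of these cells in the levels of single chemokines and receptors was not tested.

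**Figure D4:**
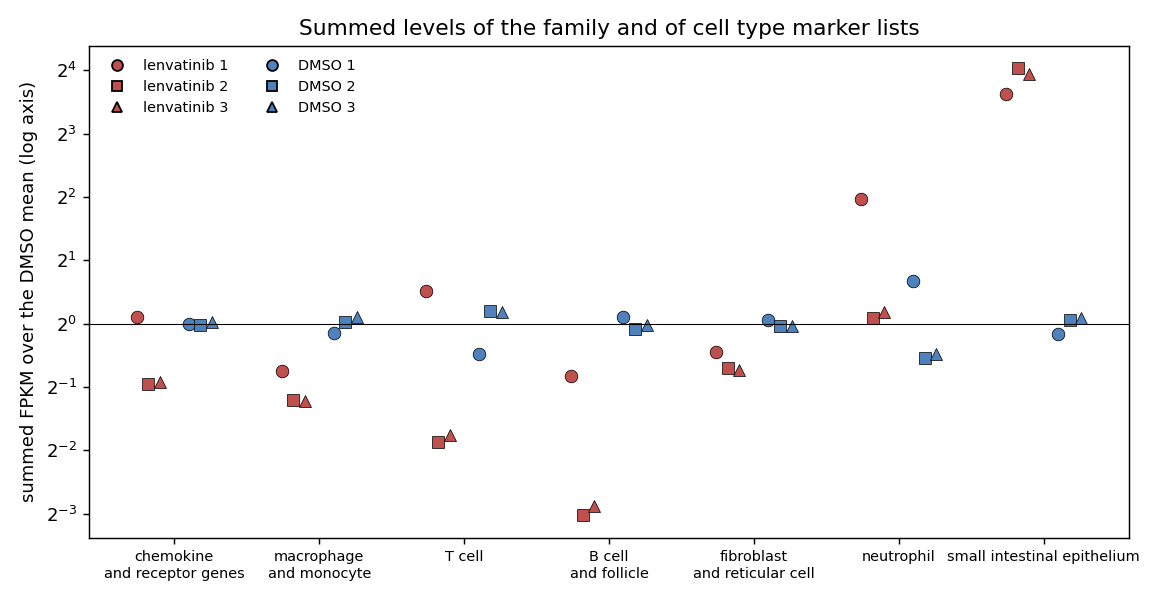
Summed FPKM of the 56 family members and of 6 cell type marker lists in each library, divided by the mean of the DMSO libraries (log axis), with lenvatinib libraries to the left of DMSO libraries within each list. Lenvatinib 1 lies above the DMSO mean for the family (621 FPKM) and for T cell markers (89.2 FPKM), where lenvatinib 2 and 3 lie below it, and all lenvatinib libraries lie above it for small intestinal markers and below it for macrophage markers.

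When ligands were set beside their receptors, 22 pairs known in mouse had both genes tested, with Cx3cr1 as partner of Cx3cl1. Both differences were negative in 18 pairs, and in the other 4 the ligand was positive and the receptor negative. Every receptor in these pairs was thus negative. The share of 63.9% negative differences over all genes tested counts single genes and is no background for pairs. With libraries 2 and 3 averaged, 15 pairs had both negative. No pair had both genes passing. In 5 pairs the receptor passed and the ligand did not, 4 of them with Ccr1 (with Ccl5, Ccl6, Ccl7 and Ccl9) and 1 with Cx3cr1. In 2 pairs the ligand passed and the receptor did not, Ccl25 with Ackr4 and Ccl28 with Ccr10. The main receptor of Ccl25, Ccr9, was too low to be tested, at 1.91, 0.280 and 0.212 FPKM with lenvatinib and 0.330, 0.799 and 0.596 FPKM with DMSO. Ccr8, the receptor of Ccl8 in mouse, had at most 6 reads. Members of a pair share libraries and several ligands share a receptor, so the pairs are not independent.

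The 21 members below the filter comprised 12 ligands, 8 receptors and Ackr2, and 7 of them had at most 10 reads in every library. The neutrophil-attracting ligands of Cxcr2 were among these low genes. Cxcl5 measured 2.19, 0.680 and 0.857 FPKM with lenvatinib and 0.429, 0.366 and 0.341 FPKM with DMSO, and Cxcl1 measured 1.97, 0.965 and 0.892 FPKM and 0.772, 0.661 and 0.188 FPKM. Both had groups that did not overlap and were highest in lenvatinib 1. In a limma fit with the filter lowered to 0.1 FPKM neither passed (adjusted p = 0.209 and 0.236). The groups of the other Cxcr2 ligands, Cxcl2, Cxcl3 and Ppbp, overlapped. Cxcl2 measured 1.64, 0.425 and 0.0477 FPKM with lenvatinib and 0.194, 0.0932 and 0.356 FPKM with DMSO, and Cxcl3 and Ppbp had at most 3 and 8 reads. Neutrophil markers summed to 45.2, 12.4 and 13.2 FPKM in lenvatinib 1 to 3 and 18.5, 7.93 and 8.33 FPKM in DMSO 1 to 3, highest in library 1 of each group. Of this list, which holds the untested family member Cxcr2, 0 of 4 tested genes passed (2 at an unadjusted p below 0.05, where 22.0% of all genes were). Their part in the Cxcr2 ligands was not tested.

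Ccl17, a ligand of Ccr4, measured 0.160, 1.20 and 0.791 FPKM with lenvatinib, from 9, 69 and 45 reads, against 0.0359, 0.155 and 0.0525 FPKM with DMSO, from 2, 9 and 3 reads. Lenvatinib 2 and 3 were high and lenvatinib 1 barely above DMSO 2 (adjusted p = 0.205 with the lower filter). Ccr6, the receptor for Ccl20 on B cells and innate lymphoid cells, measured 0.862, 0.374 and 0.243 FPKM with lenvatinib and 1.28, 1.52 and 1.50 FPKM with DMSO. All lenvatinib libraries were lower, and it did not pass with the lower filter (log2 difference −0.72, adjusted p = 0.0889). Xcr1, the receptor for Xcl1 on cross-presenting dendritic cells, measured 0.377 to 0.610 FPKM and 0.573 to 0.842 FPKM (adjusted p = 0.239). None of the other members below 1 FPKM in that fit passed, with adjusted p from 0.399 upward.

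Beyond the family, 6 further receptors for chemoattractants and related ligands were tested, of which Cx3cr1 fell and the other 5 did not pass. Ackr1, the venular receptor that carries chemokines across endothelium, measured 3.93, 3.81 and 3.40 FPKM with lenvatinib and 2.47, 1.97 and 3.02 FPKM with DMSO, without overlap (adjusted p = 0.131). None of 23 tested genes of receptor signalling passed in limma (7 at an unadjusted p below 0.05, where 22.0% of all genes were). Of the 23 differences 21 were negative, as were 63.9% over all genes tested, with a median of −0.26 for the list. None of 13 tested cytokine and NF-kB pathway genes passed either (2 at an unadjusted p below 0.05), with a median of 0.00. Of 11 tested proteases and glycan genes that act on chemokines, 1 fell, the gelatinase Mmp9, which measured 1.28, 0.789 and 0.979 FPKM with lenvatinib and 3.10, 3.16 and 3.51 FPKM with DMSO (log2 difference −1.08, SE 0.110, limma adjusted p = 0.00853). That call was lost with libraries 2 and 3 averaged (0.299) and without lenvatinib 3 (0.0620), DMSO 2 (0.0665) or DMSO 3 (0.0712). The protease Dpp4, which trims many chemokines, measured 5.94, 5.97 and 5.80 FPKM with lenvatinib and 3.27, 5.32 and 5.22 FPKM with DMSO (adjusted p = 0.278).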

How the data were processed

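RNA of mouse colon was sequenced in 6 libraries, 3 per group. Total RNA was extracted with TRIzol, per the labels' protocols. The authors deposited FPKM values per gene, counted with HTSeq on the build GRCm39 per the submitters' processing notes. For aligner, annotation and strand setting the sources used here give nothing. In all 23951 genes above 0 the values were whole multiples of a step (within 0.01 reads), which gave the reads behind each value and totals of 37996789 to 39623411. For genes with few reads these are the smallest whole numbers that match.

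All 11774 genes averaging 1 FPKM or more were tested on log2(FPKM + 1) with limma 3.58.1 in R 4.3.3, trended and robust prior, two-sided, with Benjamini-Hochberg adjustment over all of them. The fit was tested on simulated data of 11765 genes, where it made 14 false calls. The simulation gives no error rate for the real data, in which some libraries resemble one another far more closely than others. Named are the tested members except 1, which is not reported here, and of the 17 other lists examples of those that passed and a few receptors and enzymes chosen after their values were seen. Markers of colonic epithelium (0 of 11 tested passed, 4 at an unadjusted p below 0.05) and plasma cells (0 of 8, 2) did not pass in limma. Neither did those of endothelium (0 of 10, 1) and smooth muscle (0 of 7, 3). Over all genes tested 22.0% had an unadjusted p below 0.05. Of the fibroblast markers 5 of 10 fell, where 0.934% of all genes tested fell. So did 4 of 4 tested mast cell markers, which met the filter only through the DMSO libraries. The members, lists, pairs and other settings were chosen with earlier results of these data known. All 56 symbols matched RefSeq genes. Promoters are from RefSeq, build GRCm38.p6, and the deposited values carry no coordinates.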

Additional observations from a re-analysis of the deposited data

How the results depend on the processing

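The 5 members that passed kept their direction in all 18 other settings, with log2 differences of −2.70 to −2.05 for Ccl8, −1.75 to −1.48 for Pf4, −1.26 to −0.88 for Ccr1, 0.86 to 1.63 for Ccl25 and 0.40 to 0.51 for Ccl28. Pf4 passed in 15 of the 18, Ccr1 in 12 and each of Ccl8, Ccl25 and Ccl28 in 9. The scalings moved the median of all genes by at most 0.075 on the log2 scale.

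The number of members called, 2 higher and 3 lower, was 0 and 0 with the replicate number as a block, with libraries 2 and 3 averaged and with them as a random block, and 4 and 27 with sample weights. Over all genes these settings called 29, 3, 46 and 7582, against 239. Without a filter 0 were higher and 2 lower (Ccl8 was lost) and 140 of all genes passed, and with a pseudocount of 0.1, 1 was higher (Ccl28). Leaving out 1 library gave 0 to 4 higher and 1 to 20 lower (45 to 4479 over all genes), with the highest counts without lenvatinib 1. Without DMSO 1, 1 was higher and 2 lower. Libraries of the same number did not deviate together (correlations −0.20, −0.16 and −0.15 over genes). Because libraries 2 and 3 of each group were nearly alike, these correlations can neither show nor exclude a pairing by number.

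Of 630 member values in other settings, 20 changed sign, all in members that did not pass. With sample weights these were Ccl11 (0.03), Ccl22 (−0.10) and Cxcl13 (−0.37). With the pairs averaged they were Ccl2 (0.36), Cxcl10 (0.23), Cxcr6 (0.17) and Xcl1 (0.01), and with the random block Ccl2 (0.32), Cxcl10 (0.19) and Cxcr6 (0.12). With 1 library left out, the difference ranged from −0.89 to 0.28 for Ccl2, −0.77 to 0.02 for Cxcl10, −1.12 to 0.08 for Cxcr6, −0.37 to 0.35 for Cxcl13, −0.24 to 0.07 for Ackr4, −0.19 to 0.10 for Ccl11 and −0.05 to 0.21 for Ccl22. The cause was not tested. At this depth members with few reads, such as Ccl4 with 1 and 3 reads in lenvatinib 3 and 2, carry large counting error.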
